A study of Mus musculus with 2 samples.

Results

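The genes described here were the 9 gene features Calca, Calcrl, Ramp1, Ramp2, Ramp3, Ret, Nmur1, Vipr1 and Vipr2, out of 32285 gene features. They encode a neuropeptide, the parts of its receptor, and receptors through which nerves or nerve-like cells can signal to immune cells. They were chosen by name, and Calca and Ret were among the leading genes of nuclei resembling group 2 innate lymphoid cells (ILC2s) in these same data. Their higher level in ILC2s than in other cells is therefore given as a description. RNA and open chromatin were read from each nucleus, in lungs of wild-type C57BL/6J fetuses on gestation day 18, whose fathers were untreated. The PBS library pooled 9 fetuses of a mother sensitized with PBS in alum and given PBS by the nose during pregnancy. The OVA library pooled 8 fetuses of a mother sensitized with ovalbumin in alum and given ovalbumin by the nose, a model of maternal asthma. Each library came from 1 dam, and ILC2s (CD45+, lineage-negative, ST2+), CD45+ immune cells and EpCAM+ epithelial cells had been sorted and mixed before nuclei were isolated. With 1 library per group no test was possible, so every value compares these libraries, and the 95% intervals given throughout cover counting error alone.

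Calca encodes both calcitonin and, by alternative splicing, calcitonin gene-related peptide (CGRP), a peptide of sensory neurons and of pulmonary neuroendocrine cells that acts on ILC2s. CGRP binds a receptor made of the calcitonin receptor-like receptor (Calcrl) and RAMP1, a small protein that accompanies it to the cell surface. With RAMP2 or RAMP3 in place of RAMP1 the same receptor responds to adrenomedullin. RET is the tyrosine kinase receptor of the glial cell line-derived neurotrophic factor (GDNF) family, which reaches it through GFRα co-receptors. Neuromedin U (through Nmur1) and vasoactive intestinal peptide (VIP, through Vipr1 and Vipr2) are other neuropeptides that ILC2s can sense.

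The libraries held 11473351 (PBS) and 13774959 (OVA) unique molecular identifiers (UMIs) in genes. Mitochondrial genes took 45.2% (PBS) and 29.2% (OVA) of them, and 4279 and 4996 nuclei were kept, with medians of 1117 and 1820 UMIs. The libraries shared 30 cell barcodes among the kept nuclei. Nuclei were gated by marker genes that did not include the members, which gave 2015 PBS and 2809 OVA nuclei a type. The fibroblast, myofibroblast or smooth muscle, pericyte and endothelial gates are of types outside the sorted populations. Levels are UMIs summed over a gate's nuclei per 1000000 gene UMIs (CPM). Over the genes with at least 100 UMIs in a gate, the median log2 ratio of OVA over PBS was above 0 in each gate, so ratios are also given per nuclear-gene UMI and beside that median.

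The ILC2 gate held 338 PBS and 517 OVA nuclei, and 90.5% and 91.3% of them lay in a single cluster of the whole transcriptome. Gata3, the lineage's master transcription factor, was detected in 48.8% of PBS and 61.3% of OVA nuclei of the gate, and Il1rl1, which encodes the sort marker ST2, in 51.8% and 64.6%. Both were among the 10 markers that defined the gate. Its nuclei also had to hold more ILC2 markers than markers of any other type. The marker levels given here therefore describe the gate and are no separate check of it. The markers Il13 and Il5, cytokine genes of activated ILC2s, were sparse, with 6 and 0 UMIs in the PBS library and 49 and 7 in the OVA library. Of 5 T cell markers Cd4, Cd8a and Cd8b1 were at 0 in both libraries, and the list summed to 5.47 CPM (PBS) and 12.4 CPM (OVA). The 8 mast cell or basophil markers summed to 181 CPM in PBS and 594 CPM in OVA nuclei of the ILC2 gate, with Fcer1a at 0 in both, and 42 PBS and 141 OVA nuclei held at least 1 such UMI. Ratios in the ILC2 gate are therefore also given without those nuclei.

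Calca lies on chromosome 7 (GRCm38, chr7:114631478-114636357, minus strand) and had 1158 UMIs among the kept PBS nuclei and 3435 among those of OVA. The stretch from 250 bases before to 50 after its start is shown because it lies partly under an accessible peak that is described further on. The sequences are from RefSeq (GRCm38.p6), printed in the direction of transcription, with capitals for matches to 4 short motifs.
Calca, chr7:114636308-114636607, minus strand: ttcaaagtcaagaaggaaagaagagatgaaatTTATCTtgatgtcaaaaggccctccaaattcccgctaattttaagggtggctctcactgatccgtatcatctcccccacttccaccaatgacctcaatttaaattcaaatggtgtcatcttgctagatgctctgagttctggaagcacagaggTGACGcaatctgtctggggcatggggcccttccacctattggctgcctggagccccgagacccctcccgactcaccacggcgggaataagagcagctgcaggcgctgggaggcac
Calcrl, chr2:84425217-84425516, minus strand: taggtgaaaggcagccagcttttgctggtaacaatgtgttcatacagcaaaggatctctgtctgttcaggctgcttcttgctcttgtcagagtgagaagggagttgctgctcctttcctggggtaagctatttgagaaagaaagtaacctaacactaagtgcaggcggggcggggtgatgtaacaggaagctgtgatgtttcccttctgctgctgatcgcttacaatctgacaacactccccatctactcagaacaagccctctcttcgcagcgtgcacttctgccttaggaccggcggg
Ramp3, chr11:6658283-6658582, plus strand: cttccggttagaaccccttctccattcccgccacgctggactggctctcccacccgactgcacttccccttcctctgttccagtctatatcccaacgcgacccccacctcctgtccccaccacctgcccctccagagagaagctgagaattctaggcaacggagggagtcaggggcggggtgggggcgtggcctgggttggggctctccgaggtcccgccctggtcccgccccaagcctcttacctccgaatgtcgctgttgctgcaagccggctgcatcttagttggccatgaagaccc
Both strands were searched for 4 motifs. The first was AGATAA, the core bound by GATA-family factors such as GATA3. Part of the cAMP response element, TGACG, was the next. TGTGGT is the core of sites for RUNX factors. The last, TGAGTCA, is the site of AP-1. The Calca window held an AGATAA match on the opposite strand, whose first base lay 218 bases before the start. It also held TGACG, whose first base lay 65 bases before the start. The matches did not overlap. The Calcrl and Ramp3 windows held none of the 4 motifs. Of 32851 RefSeq windows of this length 11.2% held AGATAA and 20.8% held TGACG, so either match is a common one. The windows of Ret and Ramp2 were not analysed here.

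Calca was detected mainly in ILC2-gated nuclei of both libraries. These nuclei held 917 of its UMIs in PBS (79.2%) and 3139 in OVA (91.4%). Its level there was 2508 CPM (interval 2348 to 2676) for PBS and 3891 CPM (3757 to 4030) for OVA. Mast cell or basophil-gated nuclei came next, with 469 CPM (312 to 678) from 28 UMIs in PBS and 412 CPM (322 to 520) from 71 UMIs in OVA. A single PBS nucleus held 13 of these 28 UMIs, and without that nucleus the PBS level was 259 CPM. The ILC2 gate was above the mast cell or basophil gate by 2.42 (1.88 to 3.02) on the log2 scale in PBS. In OVA it was above by 3.24 (2.90 to 3.60). The other 7 gates with at least 50 nuclei per library lay between 0 and 22.3 CPM in PBS and between 10.2 and 35.6 CPM in OVA. Below the mast cell or basophil gate the log2 ratios between neighbours in the order had intervals that included 0. Of the 165 Calca UMIs that lay in ungated PBS nuclei, 70 were in the 52 ungated nuclei of the ILC2 cluster.

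**Figure D1:**
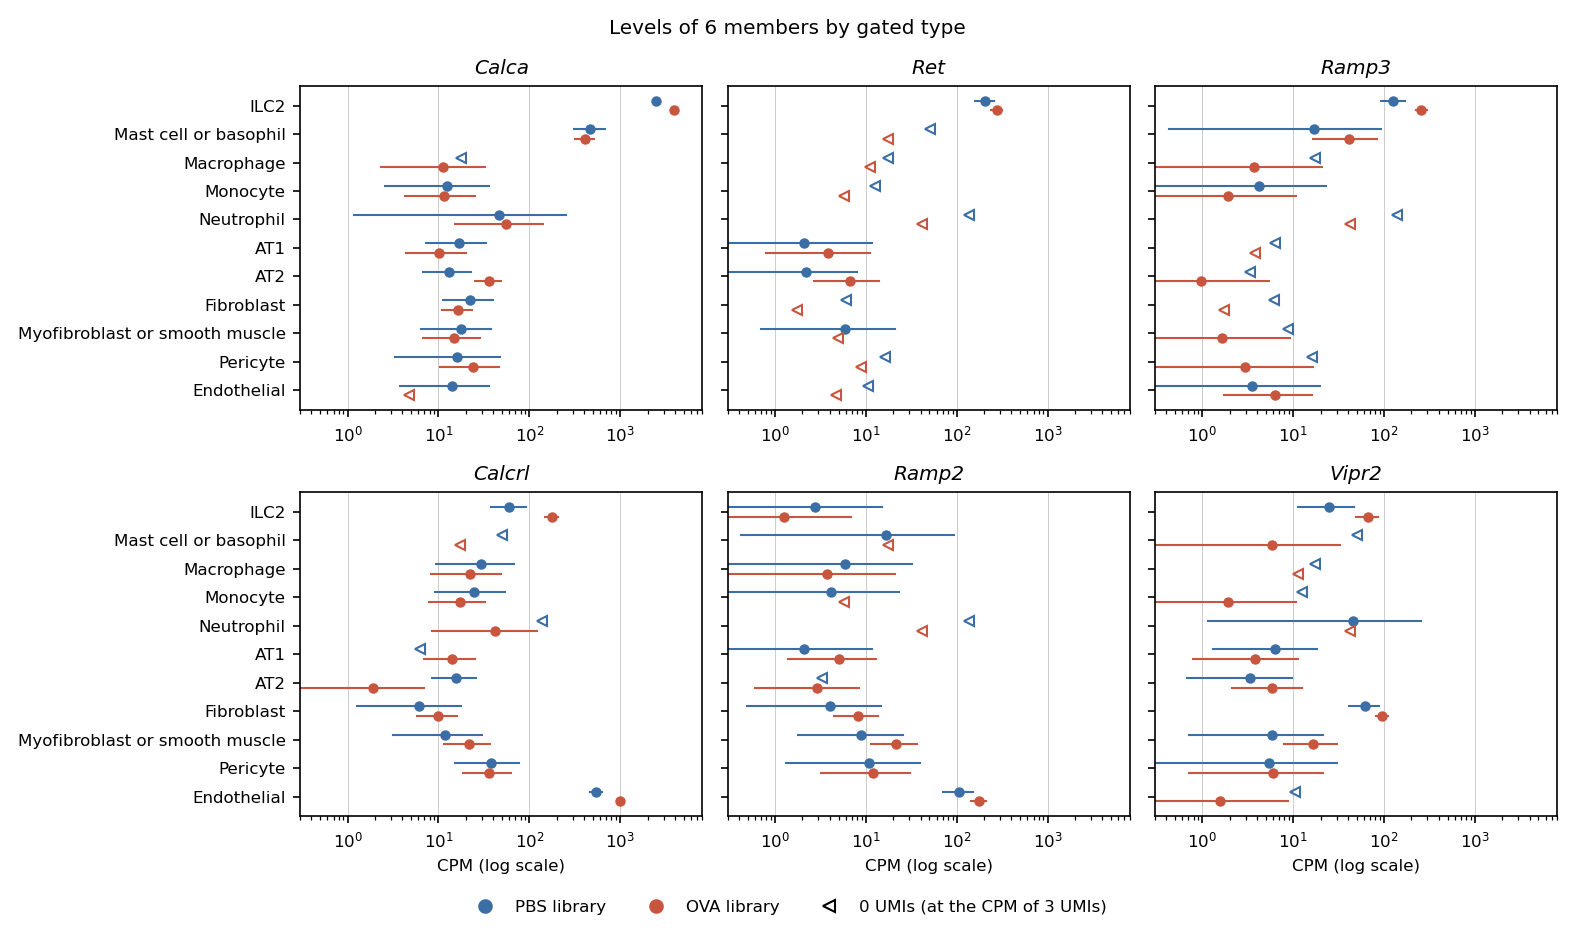
Levels of Calca, Ret, Ramp3, Calcrl, Ramp2 and Vipr2 in CPM (log axis) in 11 gated types. Points are the PBS and OVA libraries, bars are 95% Poisson intervals, and open triangles stand at the CPM of 3 UMIs where no UMI was counted. Calca, Ret and Ramp3 are highest in the ILC2 gate, Calcrl and Ramp2 in the endothelial gate and Vipr2 in the fibroblast gate, in both libraries.

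The Calca of the mast cell or basophil gate was also present in nuclei without ILC2 markers. In the nuclei of that gate that held no UMI of an ILC2 marker other than Il1rl1, which mast cells also express, Calca had 10 UMIs in 8 of 37 PBS nuclei and 47 UMIs in 17 of 61 OVA nuclei. This gave 224 CPM (107 to 411) in PBS and 536 CPM (394 to 713) in OVA. The gate's other nuclei held 18 Calca UMIs in 3 of 13 PBS nuclei and 24 in 8 of 35 OVA nuclei. Ret and Calcrl had no UMI in the 50 PBS and 96 OVA nuclei of the whole mast cell or basophil gate, and Ramp3 had 1 and 7. The mast cell or basophil cluster, which is wider than the gate, held 3 (PBS) and 4 (OVA) UMIs of Ret, 0 and 5 of Calcrl, and 4 and 19 of Ramp3. Its 16 ILC2-gated OVA nuclei held 4 of Ret, 5 of Calcrl and 8 of Ramp3. In the mast cell or basophil gate the Gata3 level was 33.5 CPM (PBS) and 5.81 CPM (OVA), from 2 UMIs and 1 UMI.

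Pulmonary neuroendocrine cells, the epithelial source of CGRP in the airway, were not captured as a group. No nucleus was gated to them, and 15 PBS and 16 OVA nuclei held 1 of the 7 neuroendocrine markers and none held more. In the ILC2 gate these markers summed to 2 UMIs in PBS and 0 in OVA, with Chga, Chgb, Scg2, Resp18 and Insm1 at 0 in both libraries. Calcb, which encodes the second CGRP, had 2 UMIs in PBS and 1 in OVA ILC2-gated nuclei. Of the 5 peptide processing genes, which cut and amidate peptides in neuroendocrine cells, Pam (the amidating enzyme) had 12 and 13 UMIs, Pcsk1 (a prohormone convertase) 1 and 5, and Pcsk2, Cpe and Scg5 at most 1 in either library.

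Calca was spread over most ILC2-gated nuclei and was uneven among them. In the PBS library 113 of 338 nuclei had no Calca UMI, the median was 1 UMI and the highest nucleus had 26. In the OVA library 123 of 517 had none, the median was 3 and the highest had 71. Nuclei with 5 or more Calca UMIs made up 20.7% of the gate in PBS and 40.04% in OVA. The 34 PBS nuclei with the most Calca carried 44.1% of its UMIs and the 52 such OVA nuclei 43.2%. OVA nuclei of the gate were deeper, with a median of 933 against 503 nuclear-gene UMIs. After thinning to 500 nuclear-gene UMIs, which left 172 PBS and 448 OVA nuclei, 58.1% (50.4 to 65.6) and 67.0% (62.4 to 71.3) had a Calca UMI. Macrophage-gated nuclei, taken as a type that should lack the gene, had one in 0 of 72 PBS nuclei, which allows a share of nuclei with a UMI of up to 4.17% (3 of 72), and in 0.990% of 101 OVA nuclei. Their medians were 931 (PBS) and 1361 (OVA) nuclear-gene UMIs before thinning.

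**Figure D2:**
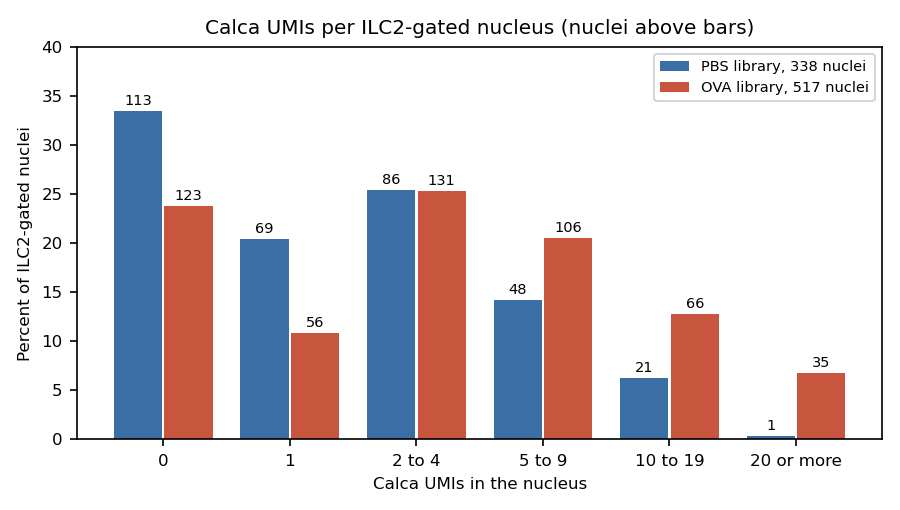
Percent of ILC2-gated nuclei (vertical axis) by the number of Calca UMIs they held (horizontal axis), for 338 PBS and 517 OVA nuclei, without thinning. Numbers above the bars are nuclei. The class with 20 or more UMIs held 1 PBS and 35 OVA nuclei.

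Ret (chr6:118151745-118197718, minus strand) had the highest share of its UMIs in the ILC2 gate among the 9 members. The ILC2 gate held 74 of its 91 UMIs in PBS (81.3%) and 222 of 235 in OVA (94.5%). Its level was 202 CPM (159 to 254) in PBS and 275 CPM (240 to 314) in OVA. The next gate had 5.84 CPM from 2 UMIs in PBS (myofibroblast or smooth muscle) and 6.73 CPM from 7 UMIs in OVA (AT2, the alveolar type 2 cells that make surfactant). The ILC2 gate was above those by 5.11 (3.21 to 8.19) and 5.35 (4.29 to 6.69) on the log2 scale. At 500 nuclear-gene UMIs, 9.30% (5.41 to 14.7) of PBS and 15.8% (12.6 to 19.6) of OVA nuclei of the gate had a Ret UMI, against 0 of 72 and 0 of 101 macrophage-gated nuclei. Unthinned, these were 15.7% and 25.7%.

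The ligands and co-receptors of RET were sparse in these nuclei. Gdnf, Nrtn, Artn and Pspn had between 0 and 31 UMIs each among all kept nuclei of a library, and in ILC2-gated nuclei their only UMI was 1 of Artn in PBS. The co-receptor Gfra2, which binds neurturin, had 9 UMIs in PBS and 8 in OVA in the ILC2 gate, and Gfra1, which binds GDNF, had 0 and 2. In fibroblast-gated nuclei Gfra2 was at 130 CPM in PBS (64 of 243 UMIs) and 178 CPM in OVA (307 of 605 UMIs).

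Calcrl and Ramp1, the parts of the CGRP receptor, were distributed differently over the gates. For Ramp1 no highest gate was resolved in PBS. There AT2 was above the next large gate by 0.11 (-1.19 to 1.59) on the log2 scale. Calcrl (chr2:84330626-84425411, minus strand) was highest in the few nuclei gated by endothelial markers, 23 in PBS and 35 in OVA, with 543 CPM (461 to 635) and 994 CPM (918 to 1074). Endothelial cells are the classical site of adrenomedullin signalling. This gate was mixed: 4 haemoglobin genes were among its leading genes, its 4 erythroid markers summed to 4360 (PBS) and 4857 CPM (OVA), and its 8 endothelial markers to 2227 and 3383 CPM. Its 3 deepest nuclei held 57.0% (PBS) and 69.5% (OVA) of its UMIs. A single nucleus gave 74 of the 155 PBS and another 296 of the 633 OVA Calcrl UMIs. Without the deepest nucleus of each library the levels were 416 CPM (PBS) and 833 CPM (OVA). Ramp2 (chr11:101246028-101259546, plus strand) was also highest there, at 105 CPM (PBS) and 174 CPM (OVA), from 30 and 111 UMIs. In the ILC2 gate Ramp2 had 1 UMI in each library.

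ILC2-gated nuclei held Calcrl and Ramp3 and few UMIs of Ramp1. Calcrl was at 60.2 CPM (37.7 to 91.1) from 22 UMIs in PBS and at 177 CPM (149 to 209) from 143 UMIs in OVA. In OVA this was above the next large gate, pericytes with 35.7 CPM. In PBS the difference from the pericyte gate, with 37.8 CPM, was 0.67 on the log2 scale with an interval from -0.61 to 2.14. Ramp3 (chr11:6658521-6677475, plus strand) was at 126 CPM (92.1 to 168) in PBS and 257 CPM (223 to 294) in OVA. The ILC2 gate held 46 of its 59 UMIs in PBS (78.0%) and 207 of 235 in OVA (88.1%). At 500 nuclear-gene UMIs, 8.72% (4.96 to 14.0) of PBS and 18.3% (14.8 to 22.2) of OVA nuclei of the gate had a Ramp3 UMI, and none of the macrophage-gated nuclei did. The same shares for Calcrl were 6.40% (3.24 to 11.2) and 10.04% (7.42 to 13.2), whose intervals overlapped. Ramp1 (chr1:91179822-91225196, plus strand) had 7 and 11 UMIs in the ILC2 gate, 19.1 CPM (7.70 to 39.4) in PBS and 13.6 CPM (6.81 to 24.4) in OVA. These were within the range of the other gates. The highest Ramp1 level among the large gates was 22.0 CPM in PBS (AT2) and 41.4 CPM in OVA (myofibroblast or smooth muscle).

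In single ILC2-gated nuclei Ramp1 was rare both with and without Calcrl. Without thinning it was seen in 0 of 21 Calcrl-positive PBS nuclei and 7 of 317 without Calcrl. In OVA these were 3 of 84 (3.57%, 0.74 to 10.1) and 8 of 433 (1.85%, 0.80 to 3.61), whose intervals overlapped. Ramp3 was seen in 7 of 21 Calcrl-positive PBS nuclei and 29 of 84 in OVA without thinning. At 500 nuclear-gene UMIs, 17.8% (8.00 to 32.1) of OVA nuclei with Calcrl and 18.4% (14.7 to 22.5) of those without it had a Ramp3 UMI. Calca was seen in 82.9% (73.0 to 90.3) of thinned OVA nuclei with Ramp3 and in 63.4% (58.2 to 68.3) of those without it. The same shares in PBS were 80.0% (51.9 to 95.7) and 56.1% (47.9 to 64.0), whose intervals overlapped. For Ret they were 77.5% (66.0 to 86.5) with and 65.0% (59.9 to 69.8) without it in OVA, and 81.3% (54.4 to 96.0) and 55.8% (47.6 to 63.7) in PBS, with overlapping intervals in both.

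The receptors for neuromedin U and VIP differed from each other in distribution. Nmur1 (chr1:86386303-86426228, minus strand), a defining receptor of adult ILC2s, had 1 UMI in the ILC2 gate of each library and 7 (PBS) and 12 (OVA) UMIs among all kept nuclei. Vipr1 (chr9:121642716-121672954, plus strand) also had 1 UMI in each ILC2 gate, and 12 and 17 in all. Vipr2 (chr12:116077726-116146261, plus strand) was highest in fibroblast-gated nuclei, at 60.9 CPM (41.1 to 86.9) in PBS and 95.8 CPM (81.7 to 112) in OVA. The ILC2 gate came second, at 24.6 CPM (11.3 to 46.7) from 9 UMIs and 65.7 CPM (49.2 to 85.9) from 53 UMIs. The fibroblast gate was above it by 1.31 (0.20 to 2.57) in PBS and 0.54 (0.09 to 1.02) in OVA on the log2 scale. Vip and Nms had no UMI in either library, and Nmu and Adcyap1 had 1 each, in OVA.

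Among all genes with at least 100 UMIs over the gated nuclei, 6.31% were at least 2-fold higher in ILC2-gated than in other gated nuclei in both libraries. Calca, Ramp3, Ret and Vipr2 were among them, which for Calca and Ret the choice of members had used. Calcrl, Ramp1 and Ramp2 were not, and Nmur1 and Vipr1 had fewer than 100 UMIs. Vipr2 passed narrowly, at a log2 ratio of 1.04 (-0.18 to 2.11) from 9 UMIs in PBS and 1.13 (0.66 to 1.58) in OVA. Its PBS interval included 0. Calcrl was at 60.2 against 58.2 CPM in the other gated nuclei of PBS and at 177 against 112 CPM in OVA, the endothelial nuclei included.

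The levels of ILC2-gated nuclei were then compared between the fetuses of OVA and PBS mothers. Calcrl was higher in OVA by 1.56 (0.91 to 2.28) on the log2 scale, and by 1.32 (0.66 to 2.04) per nuclear-gene UMI. With nuclei thinned to 500 nuclear-gene UMIs it was 0.97 (0.019 to 2.05), and at no more than 20% mitochondrial UMIs, which left 13 PBS nuclei, 0.91 (-1.05 to 4.002), both below 2-fold. Ramp3 was higher by 1.03 (0.56 to 1.52), by 0.79 (0.32 to 1.28) per nuclear-gene UMI, and by 1.18 (0.42 to 2.01) after thinning. Calca was higher by 0.63 (0.53 to 0.74), or 0.39 (0.29 to 0.50) per nuclear-gene UMI. Ret was higher by 0.44 (0.06 to 0.84), or 0.20 (-0.18 to 0.60) per nuclear-gene UMI, an interval that included 0. The median of the 1528 genes with at least 100 UMIs in this gate was 0.42, so Ret lay 0.023 and Calca 0.21 above it. Mitochondrial genes took 40.9% of the gate's UMIs in PBS and 30.2% in OVA. Calcrl and Ramp3 were 2 of the 4 such members at least 2-fold higher in OVA, and none was 2-fold lower. Of all 1528 genes 10.8% were at least 2-fold higher and 0.393% at least 2-fold lower. Since the OVA gate had more UMIs, a gene could pass the 100 UMIs through that library alone. Calcrl (22 PBS and 143 OVA UMIs), Ramp3 (46 and 207) and Ret (74 and 222) did so.

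**Figure D3:**
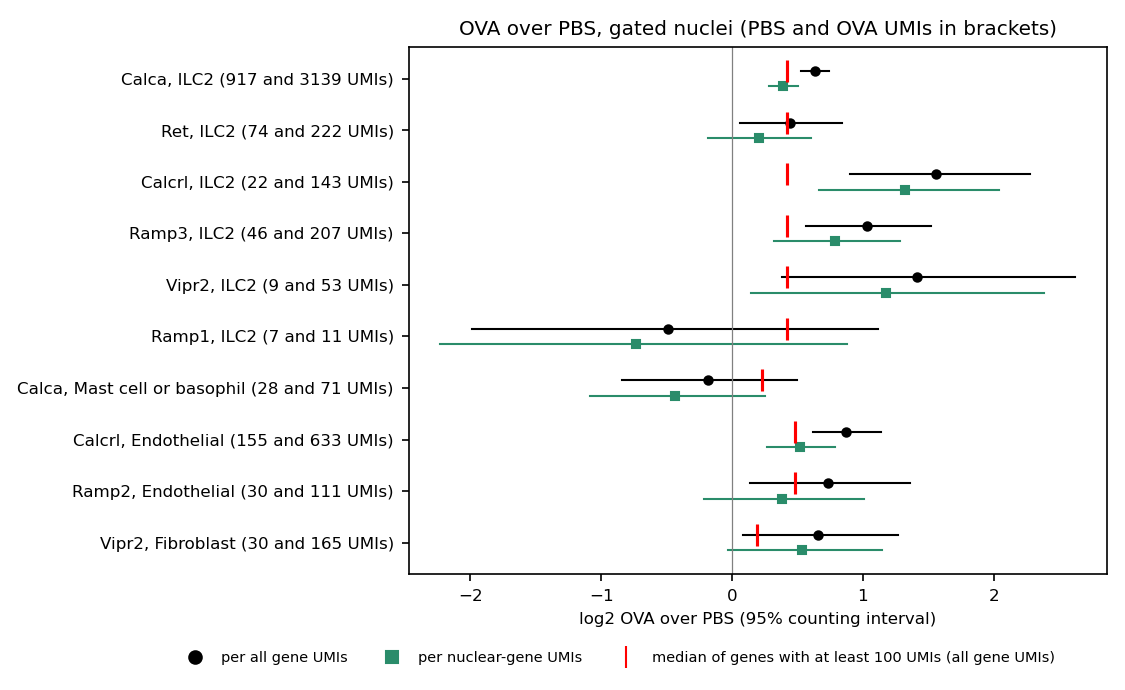
log2 of OVA over PBS (horizontal axis) for members in the gates named at the left, with the PBS and OVA UMIs. Black points use all gene UMIs, green squares nuclear-gene UMIs, bars are 95% counting intervals, and red ticks mark the median of the genes with at least 100 UMIs in that gate. Calcrl at 1.56 and Ramp3 at 1.03 lie right of the ILC2 median of 0.42, while Ret at 0.44 lies on it.

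Without the ILC2-gated nuclei that held a mast cell or basophil marker, the ratios were 1.61 for Calcrl, 1.03 for Ramp3, 0.65 for Calca and 0.55 for Ret. Vipr2, with fewer than 100 UMIs in the gate, was higher by 1.42 (0.38 to 2.62) on the log2 scale, or 1.18 (0.14 to 2.38) per nuclear-gene UMI. Relative to the median of genes it gave 0.996 (-0.036 to 2.20), and after thinning 0.82 (-0.61 to 2.57), intervals that included 0. Ramp1 gave -0.49 with an interval from -1.99 to 1.12, so no difference was detectable at this depth. Of the 31 other pathway genes, 4 had at least 100 UMIs in the gate: Gnas (the Gs protein that couples these receptors to cAMP), Crem (a cAMP-responsive transcription factor), and the cAMP phosphodiesterases Pde4b and Pde4d. Crem was the only one at least 2-fold higher, from 301 to 607 CPM, a log2 ratio of 1.01 (0.71 to 1.32), and none was 2-fold lower. Per nuclear-gene UMI Crem gave 0.77 (0.47 to 1.08) and relative to the median of genes 0.59, both below 2-fold. Pde4b gave 0.70, or 0.46 (-0.17 to 1.14) per nuclear-gene UMI, and Pde4d 0.65, or 0.41 (0.073 to 0.76). Gnas gave 0.21 with an interval from -0.13 to 0.57, or -0.027 per nuclear-gene UMI. Their median was 0.68.

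In the endothelial gate Calcrl was higher in OVA by 0.87 (0.62 to 1.14), or 0.52 (0.27 to 0.78) per nuclear-gene UMI, beside a median of 0.48 over genes. With each nucleus thinned to 500 nuclear-gene UMIs it was 3.37 (1.40 to 6.47). Ramp2 gave 0.73 (0.14 to 1.36) and 0.38 (-0.21 to 1.01), and -0.63 (-4.42 to 3.15) after thinning. On summed gene UMIs neither reached 2-fold, as 11.3% of the genes with at least 100 UMIs in the gate did. Calcrl passed 2-fold after thinning and as the mean of single-nucleus CPM, at 2.18, where Ramp2 gave -0.46. In the fibroblast gate Vipr2 was higher by 0.65 (0.09 to 1.27), or 0.53 (-0.03 to 1.15), where 2.12% of genes reached 2-fold higher. Calca in the mast cell or basophil gate, where 1 PBS nucleus held 13 of its 28 UMIs, gave -0.19 (-0.84 to 0.50). In the nuclei of that gate without an ILC2 marker other than Il1rl1 it gave 1.26 (0.26 to 2.41), in the mast cell or basophil cluster 0.51 (0.038 to 1.01), and as the mean of single-nucleus CPM 0.46, so its direction depended on the setting.

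The chromatin around the members was read in the same nuclei, as transposition counts in peaks that the authors called in each library, per 1000000 counts in peaks (peak CPM). These counts had no part in the choice of members or in the gates. Of the PBS peaks with at least 50 counts 11.7% were at least 2-fold higher in ILC2-gated than in other gated nuclei, and of the OVA peaks 13.5%. Peaks were assigned to a member by a centre within 100 kb of one of its coding starts, which does not show that they act on it.

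Around Calca the chromatin within 50 kb was more accessible in ILC2-gated than in other gated nuclei. Those peaks summed to 99.8 peak CPM in ILC2-gated and 9.42 in other gated nuclei in PBS, and to 89.7 and 7.57 in OVA. The log2 ratios were 3.41 (3.11 to 3.71) and 3.57 (3.28 to 3.85). The mast cell or basophil gate had 47.5 (PBS) and 58.3 (OVA) peak CPM in that window, above the nuclei of all other gates, ILC2 included, by 1.15 (0.58 to 1.68) and 1.53 (1.14 to 1.90). Within 100 kb the log2 ratios of ILC2-gated over other gated nuclei were 1.28 (1.11 to 1.45) and 1.18 (1.04 to 1.33). For the mast cell or basophil gate they were 0.41 (0.04 to 0.77) and 0.63 (0.37 to 0.89). The window of 100 kb takes in a peak at the start of Cyp2r1, 73444 bp downstream in PBS. That peak had 46.0 peak CPM in ILC2-gated and 44.4 in other gated nuclei. The peak over the Calca start (chr7:114635615-114636532 in PBS), which overlaps the sequence printed above, had 22.4 against 3.10 peak CPM in PBS. In OVA it had 19.1 against 0.947. The log2 ratios were 2.86 (2.28 to 3.44) and 4.34 (3.58 to 5.16). An intergenic peak 19.3 kb downstream of the start (chr7:114616472-114617373) had 46.0 against 0.838 in PBS and 46.6 against 2.26 in OVA. Its log2 ratios were 5.78 (4.95 to 6.73) and 4.36 (3.88 to 4.88). In mast cell or basophil-gated nuclei this peak had 4 counts in PBS and 24 in OVA, or 5.93 and 20.6 peak CPM.

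**Figure D4:**
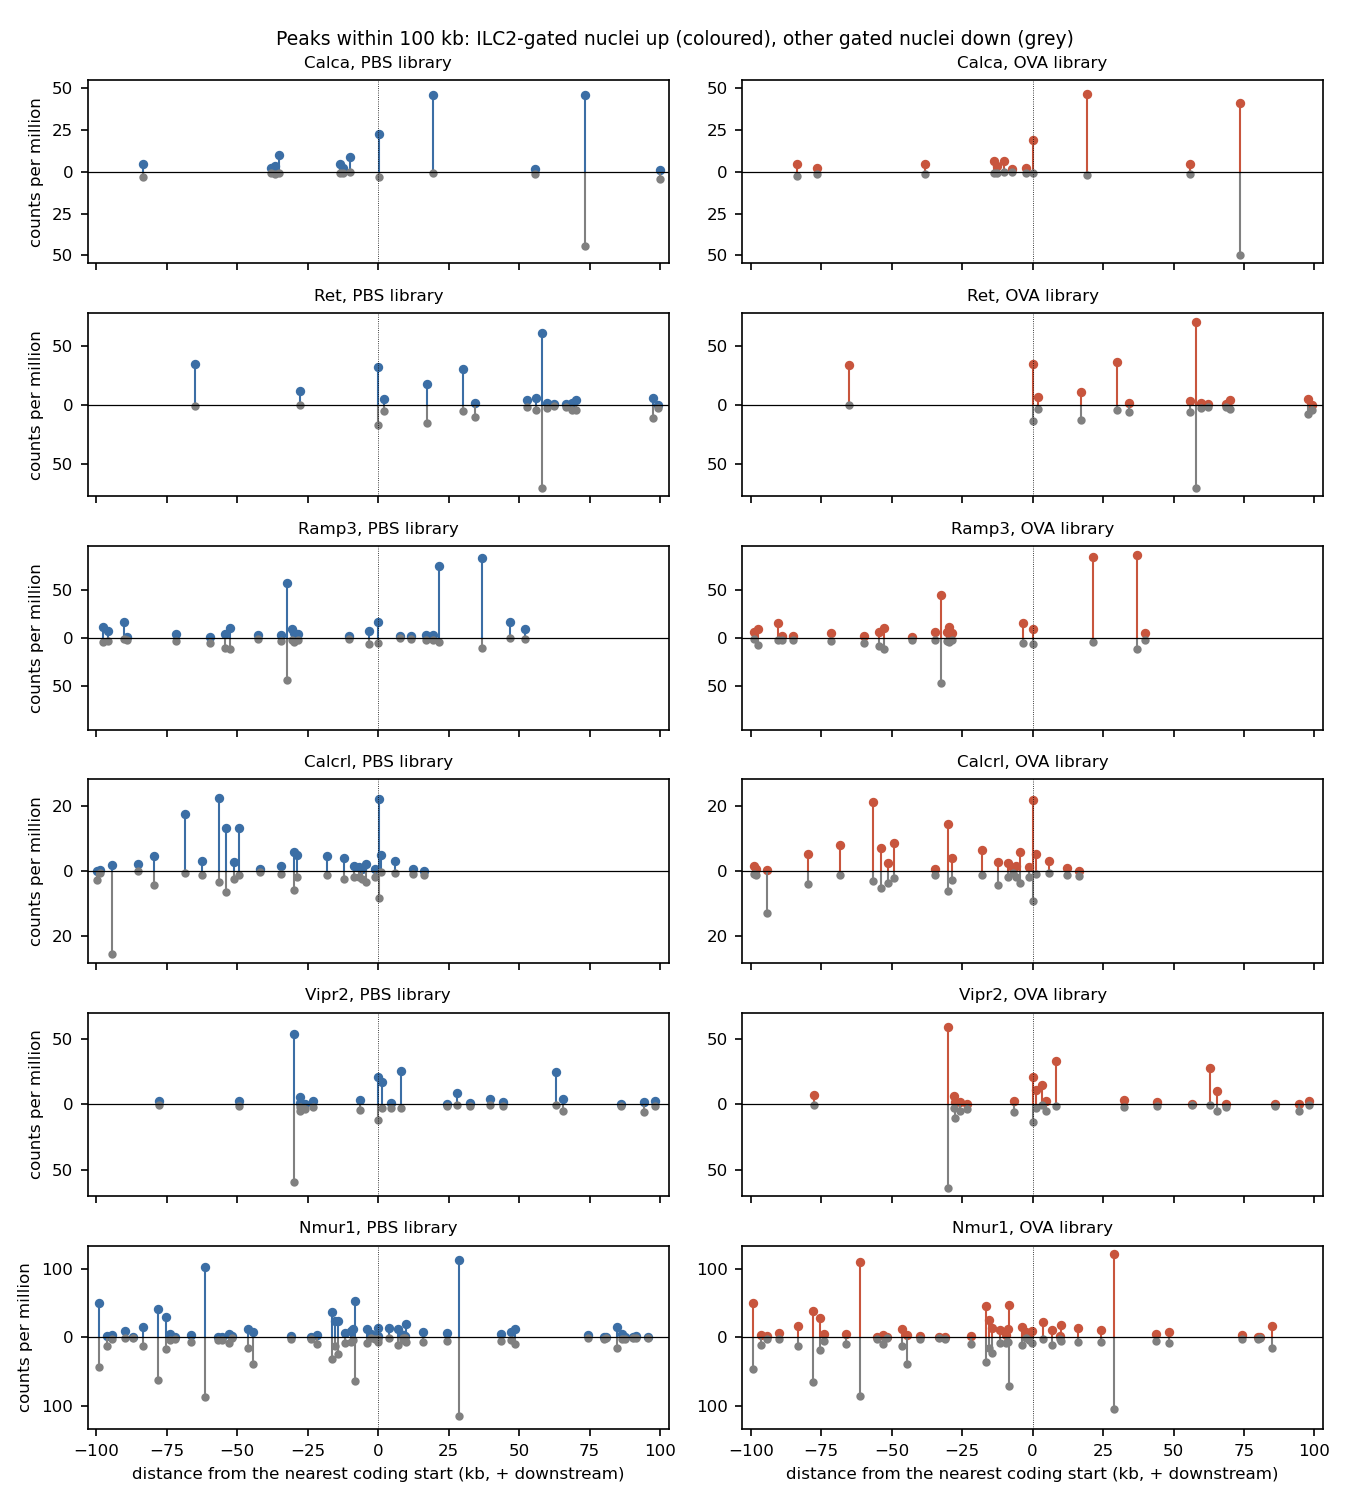
Peaks within 100 kb of 6 members by the distance of their centre from the nearest coding start (kb, downstream to the right), PBS library at left and OVA library at right. Bars upward are peak CPM in ILC2-gated nuclei and grey bars downward in other gated nuclei. The peak 19.3 kb downstream of Calca reaches 46.0 (PBS) and 46.6 (OVA) in ILC2-gated nuclei, and the grey bars there are 0.838 and 2.26.

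Ret had a start peak that was open in other cells too, and 2 distal peaks that were higher in ILC2-gated nuclei. Within 100 kb the log2 ratio was 0.46 (0.32 to 0.59) in PBS and 0.59 (0.48 to 0.70) in OVA. In PBS the AT2 gate was about as open around Ret. It had 90.4 peak CPM within 50 kb and 193 within 100 kb, beside 97.9 and 217 in the ILC2 gate. The peak at the start (chr6:118196827-118197675) had 31.7 against 17.3 peak CPM in PBS and 34.8 against 13.5 in OVA. A peak 65.2 kb upstream (chr6:118262356-118263448), between genes, had 34.4 against 0.645 in PBS and 33.8 against 0.263 in OVA. These were log2 ratios of 5.74 (4.79 to 6.85) and 7.01 (5.75 to 8.65). In mast cell or basophil-gated nuclei it had 0 counts in PBS and 2 in OVA. A peak in an intron of Ret lay 30.01 kb downstream of the start (chr6:118166684-118167566), nearer to a coding start of Csgalnact2. It had 30.6 against 4.84 in PBS and 36.0 against 4.05 in OVA.

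The receptor genes also had peaks that were higher in ILC2-gated than in other gated nuclei. Their distal, exonic and intronic peaks named here were picked for being higher there, as were those of Calca and Ret above. Downstream of Ramp3, peaks 21.6 kb (chr11:6679703-6680568) and 36.9 kb (chr11:6694963-6695869) from the start had 74.7 against 3.80 and 83.2 against 10.9 peak CPM in PBS. In OVA they had 83.3 against 4.10 and 86.3 against 11.3. Its start peak, which overlaps the printed sequence, was nearer to the other cells, at 16.2 against 5.16 in PBS and 9.31 against 6.47 in OVA. Over the Calcrl start (chr2:84424848-84425740) ILC2-gated nuclei had 22.1 against 8.13 in PBS and 21.8 against 9.10 in OVA. Other single gates were about as open around Calcrl. Within 2 kb the macrophage gate had 32.2 (PBS) and 26.8 (OVA) peak CPM, beside 27.9 and 28.4 in the ILC2 gate. Within 50 kb the mast cell or basophil gate had 87.5 and 86.6, beside 72.3 and 80.6 in the ILC2 gate. Around Vipr2 a peak 63.1 kb downstream (chr12:116200021-116200901), nearer to the start of Wdr60, had 24.4 against 0.516 in PBS and 27.9 against 0.631 in OVA. A peak over an exon of Vipr2, 8.15 kb from one of its coding starts (chr12:116145067-116145922), had 25.5 against 3.03 and 33.3 against 1.63. In the body of Ramp1 an intronic peak 13.4 kb downstream of the start (chr1:91192948-91193858) had 15.9 against 1.42 in PBS and 24.3 against 1.63 in OVA.

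Nmur1 had 1 UMI in the ILC2 gate of each library, and 2 peaks in its introns, named here because they were higher in ILC2-gated nuclei, lay near its coding starts. The one 3.69 kb downstream of a coding start (chr1:86394082-86394911) had 13.9 peak CPM against 1.35 in PBS and 22.3 against 1.68 in OVA. The log2 ratios were 3.36 (2.55 to 4.21) and 3.73 (3.13 to 4.36). Its window of 100 kb as a whole, which holds many other genes' starts, did not stand apart, with log2 ratios of 0.05 (-0.02 to 0.12) and 0.03 (-0.03 to 0.09).

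Of the peaks with at least 50 counts within 100 kb in PBS, where 11.7% of all such peaks were at least 2-fold higher in ILC2-gated nuclei, 7 of 15 around Ramp3 were 2-fold higher and 2 lower. The counts were 5 of 9 higher and 1 lower around Calcrl, 4 of 11 and 3 around Vipr2, 2 of 5 and 1 around Calca, and 2 of 12 and 2 around Ret. Around Ramp1 they were 3 of 20 and 6, around Nmur1 5 of 37 and 6, around Vipr1 1 of 15 and 4, and around Ramp2 0 of 26 and 6. In OVA, where the share over all peaks was 13.5%, they were 9 of 19 higher and 1 lower around Ramp3, 6 of 13 and 1 around Calcrl, 6 of 15 and 6 around Vipr2, 2 of 4 and 0 around Calca, and 3 of 12 and 2 around Ret. Around Ramp1 they were 4 of 28 and 8, around Nmur1 5 of 38 and 7, around Vipr1 2 of 16 and 5, and around Ramp2 1 of 29 and 9. For Nmur1 the shares of higher peaks were 13.5% in PBS and 13.2% in OVA, and for Ramp1 15% and 14.3%, near the share over all peaks.

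Between the libraries, no difference in the counts of ILC2-gated nuclei summed over 100 kb was resolved for any member. These sums were not corrected for the length that the peaks covered. Some single peaks differed more, in either direction. The Ramp3 start peak had 16.2 peak CPM in PBS and 9.31 in OVA, and the Nmur1 peak 3.69 kb from a coding start 13.9 and 22.3. Over peaks that overlapped a peak of the other library, the log2 ratio of OVA over PBS within 100 kb was -0.06 (-0.25 to 0.14) for Calca, -0.11 (-0.31 to 0.09) for Calcrl, 0.01 (-0.11 to 0.14) for Ramp3 and 0.04 (-0.12 to 0.20) for Ret. Vipr2 gave 0.17 with an interval from -0.001 to 0.34. All 9 intervals included 0. The overlapping peaks of Calca covered 8990 bp in PBS and 7114 bp in OVA, and per covered length its ratio was 0.28. That of Vipr2 was 0.196 per covered length. No interval was computed for these ratios, so whether they differ from 0 was not tested.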

How the data were processed

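The deposited files held raw counts: per the file headers and the submitters' notes, the authors ran Cell Ranger ARC 2.0.1 on mm10 (GRCm38) and deposited whole-number counts of gene UMIs and of transposition events in peaks called per library, without normalization. Nuclei entered with 200 or more genes detected and a mitochondrial share no higher than 60%. Doublets were called from simulated neighbours at 0.8% per 1000 barcodes (293 PBS, 250 OVA) and removed. A nucleus was gated to the type with the most detected markers, at least 2 and at least 1 more than any other type. Sftpc, found in over 20% of nuclei, was not counted. Leiden clusters (3000 variable genes, 30 components, resolution 1.0, without the members) were an alternative. CPM used all gene UMIs, mitochondrial ones included. Sums had exact Poisson intervals, shares Clopper-Pearson intervals and ratios conditional binomial intervals (95%). Where a gate had no UMI, 3 UMIs served as floor. Peaks were placed with GENCODE M21. The members, the pathway list and the markers were chosen with earlier results of these data known. The text names the members and pathway genes, and the 3 genes most like a member. Python 3.11.15, numpy 2.4.6, scipy 1.17.1, pandas 2.3.3 and leidenalg 0.10.2 were used. Some genes of the pathway and marker lists are not reported here.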

Additional observations from a re-analysis of the deposited data

Results flagged for a closer look

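Calcrl differed in direction between gates, which was not tested. From PBS to OVA it was higher by a log2 ratio of 1.56 in ILC2-gated and 0.87 in endothelial-gated nuclei, and in nuclei gated as AT1, the flat alveolar cells, it went from 0 to 11 UMIs, which is 1.15 against a floor of 3 UMIs, with a lower counting limit of 0.61. In AT2-gated nuclei it was lower, at -3.002, from 14 UMIs in 5 PBS nuclei to 2 UMIs in 2 OVA nuclei. One PBS AT2 nucleus held 6 of the 14 UMIs, and one OVA AT1 nucleus held 6 of the 11.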

How the results depend on the processing

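No paired analysis was possible because only 1 library stood in each arm. The log2 ratio of Calca in ILC2-gated nuclei, 0.63, stayed above 0 and was 0.39 per nuclear-gene UMI, 0.21 centred on the median of genes, 0.81 at no more than 20% mitochondrial UMIs, 0.93 under the joint count filter and 0.52 after thinning. That of Ret was 0.023 when centred and 2.21 at no more than 20% mitochondrial UMIs, which left 13 PBS nuclei, and that of Vipr2 was then 0.12 in place of 1.42. Calca in the ILC2 gate over the next gate moved in PBS to 7.23 (20% mitochondrial UMIs), 1.76 (joint filter) and 1.86 (thinned). In OVA it moved to 6.04 (20%), 2.22 (Leiden clusters) and 2.85 (thinned). The next gate was found anew in each setting, so these ratios need not be over the mast cell or basophil gate. The 20% setting left 13 PBS and 83 OVA nuclei of the ILC2 gate, so 7.23 and 6.04 do not show a sharper difference. Ret over the next type was 2.44 (PBS) and 4.04 (OVA) with Leiden clusters, where the mast cell or basophil cluster came next. Calca accessibility in PBS was 1.11 with doublets kept. Within 50 kb it was 3.41 (PBS) and 3.57 (OVA), and within 2 kb 2.86 and 4.34. Ret accessibility was 0.87 and 1.16 within 50 kb and 0.72 and 1.25 within 2 kb. Ramp2 in the endothelial gate reversed to -0.46 (mean of single-nucleus CPM), -0.21 (joint filter) and -0.63 (thinned). The causes were not tested. In mast cell or basophil-gated nuclei without other ILC2 markers, an alternative chosen after seeing the data, Calca gave 1.26 in place of -0.19, and 0.51 with Leiden clusters. Depth limits Ramp1, Ramp2, Nmur1 and Vipr1 in the ILC2 gate, which rested on 1 to 11 UMIs a library.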

Other observations

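Over the 18 points of 9 gated types in 2 libraries, the genes whose log2 levels ran most like each member were named from 8313 genes. They were P2ry10, Rnf125 and Nlrc3 for Calca (Pearson's r 0.971, 0.969 and 0.967), Il17rb, Sh2d2a and Il2ra for Ret (0.985, 0.983 and 0.973), and Nlrc3, Stat4 and P2ry10 for Ramp3 (0.985, 0.968 and 0.960). For Vipr2 they were Adam12, Amph and Zfp36l1 (0.934, 0.914 and 0.912). For Calcrl, Ramp1 and Ramp2 the highest r was 0.813 (Wdr90), 0.805 (Cacna1a) and 0.820 (Tfpi), and the endothelial gate was too small to enter. The 2 points of a type share its markers and those of a library its depth, so these values are descriptions, and Il17rb and Il2ra were themselves markers of the ILC2 gate.

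Calca in AT2-gated nuclei went from 12 UMIs in PBS to 37 in OVA, 13.2 and 35.6 CPM, and 1 OVA nucleus held 10 of them. In the 12 ILC2-gated OVA nuclei that fell in the natural killer cell cluster Calca had 1 UMI, while in the 16 that fell in the mast cell or basophil cluster it had 110.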
